A study of Rattus norvegicus with 64 samples.

Results

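Lung tissue of rats that had inhaled 10 mg/m3 of fracking sand dust was compared between day 27 and day 7 after the end of exposure, across all genes. The comparison rests on 9 of the 64 libraries of the study, from 4 dust rats at day 27 and 5 dust rats at day 7, chosen by their labels alone. Fracking sand dust is the mineral dust, mostly crystalline silica, that is set free when sand is handled for hydraulic fracturing. The animals were outbred male rats of the Sprague-Dawley stock, of 200 to 250 g, kept on a 12 h light cycle and exposed in a whole-body chamber for 6 h a day on 4 days. Total RNA of a piece of lung was depleted of ribosomal RNA and sequenced with a stranded kit.

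For reference, the same change over time was taken in rats that breathed filtered air in the same study (4 at day 27 and 5 at day 7) and in the separate study of 30 mg/m3 dust (6 at day 27 and 6 at day 7). The labels name no mutation and no drug for any of these groups. The animals of day 27 had lived 20 days longer after exposure than those of day 7, so that time since the dust and age cannot be told apart within the dust groups. Rats of this weight are young and still growing. In a piece of whole lung, fewer cells of a type and less RNA per cell cannot be told apart either.

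Respirable silica particles are taken up by alveolar macrophages, which in mouse and rat can answer with inflammasome activation and with chemokines such as Ccl2 and Cxcl1 that draw in monocytes and neutrophils. Lasting exposure is known to lead to macrophage activation with Spp1 and Mmp12, and to deposition of collagen and other matrix by fibroblasts. The young lung meanwhile lowers its own cell division and matrix production as growth slows. The comparison of a late with an earlier day asks which genes still moved after the first week.

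The libraries held 8419717 to 9200915 counts at day 27 and 6180793 to 8647954 counts at day 7, with 19204 to 19488 and 18856 to 19300 genes detected. Markers of lung were abundant in every rat: Sftpc of alveolar type 2 cells stood at 7712 to 9323 CPM (counts scaled to a common library size) at day 27 and 7201 to 8730 CPM at day 7, and Ager of alveolar type 1 cells at 1437 to 1962 and 1412 to 1710 CPM. All CPM levels here use library sizes corrected by TMM factors. The share of counts on the mitochondrial ribosomal RNAs Rnr1 and Rnr2 was 2.62 to 3.18% at day 27 and 1.47 to 3.12% at day 7. Myh6, a myosin of heart muscle that rat lung carries in the sleeves of its veins, ran from 0.483 to 62.5 CPM at day 27 and from 8.17 to 426 CPM at day 7.

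Few differences between the 2 days passed the test. A single gene, Igsf10, passed a Benjamini-Hochberg adjusted p of 0.05 in edgeR's quasi-likelihood test, which is 1 of 15668 genes or 0.00638%, with 0 genes higher and 1 lower. DESeq2 called 6 genes (Igsf10, Scn3b, Pkhd1 and Adamts9 lower, Esm1 and Vwa1 higher) and limma voom called Igsf10 alone. At an unadjusted p under 0.05 there were 703 genes (4.49%), 323 higher (2.06%) and 380 lower (2.43%) at day 27. That count depended on the fit. With only the compared dust groups in edgeR, under their own filter on low counts, it was 1720, and 2 genes passed after adjustment. From the 5th to the 95th percentile of genes the log2 fold change ran from -0.40 to 0.33, against a median standard error (SE) of 0.15 for a single gene. The groups did not overlap for 233 genes that were higher (1.49%) and for 416 that were lower (2.66%) at day 27.

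Igsf10, which encodes a large secreted protein with leucine-rich repeats and immunoglobulin domains, was lower at day 27. Its level was 109.8, 118, 106 and 105 CPM in the dust rats of day 27, against 179, 163, 176, 181 and 151 CPM in the dust rats of day 7. The 4 later rats all lay below the 5 earlier ones. The means were 109.7 ± 5.69 CPM (SD, n = 4) and 169.7 ± 12.6 CPM (SD, n = 5), and the log2 fold change was -0.63 ± 0.10 (SE; 95% interval -0.84 to -0.42; adjusted p = 0.0270). In air rats of the same study Igsf10 stood at 106 ± 13.7 CPM at day 27 and 158 ± 7.68 CPM at day 7, a log2 fold change of -0.57 ± 0.10 (adjusted p = 0.0240). In the rats of 30 mg/m3 dust the log2 fold change was -0.66 ± 0.12 (adjusted p = 0.000923). The dust change minus the air change at 10 mg/m3 was -0.06, with a 95% interval of -0.36 to 0.24 (edgeR adjusted p = 1.00).

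The call on Igsf10 was lost when any of dust rats 13, 15 and 16 of day 27 or 43, 44, 45 and 47 of day 7 was left out, with adjusted p between 0.0531 and 0.253. It kept its direction each time, at log2 fold changes of -0.64 to -0.60. Without rat 48 of day 7 the count of genes called was 4, without rat 14 of day 27 it was 3, and without any of the other 7 rats it was 0 in edgeR, with 539 to 641 genes at an unadjusted p under 0.05. The genes added without rat 48 were Esm1, Scn3b and Vwa1, and those added without rat 14 were Esm1 and Vwa1.

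The next genes in order of p did not pass, and their values are given as such. Scn3b, an auxiliary subunit of voltage-gated sodium channels, stood at 59.9, 89.7, 62.1 and 88.4 CPM at day 27, against 139.9, 181, 122, 137 and 112 CPM at day 7. All later rats lay below all earlier ones, and the log2 fold change was -0.88 ± 0.17 (SE; adjusted p = 0.0572). In air rats it was -0.48 ± 0.16 (adjusted p = 0.0809), and after 30 mg/m3 dust it was -1.22 ± 0.12 (adjusted p = 3.44e-08), where Scn3b fell. The dust change minus the air change at 10 mg/m3 was -0.40, with a 95% interval of -0.87 to 0.08.

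Pkhd1 encodes fibrocystin, a membrane protein of primary cilia. It stood at 10.7, 12.8, 10.2 and 13.04 CPM at day 27 and at 20.9, 22.5, 22.5, 19.3 and 15.5 CPM at day 7, without overlap, with a log2 fold change of -0.78 ± 0.16 (adjusted p = 0.160). In air rats Pkhd1 fell, at -0.75 ± 0.16 on the log2 scale (adjusted p = 0.0240), and after 30 mg/m3 dust it was at -0.22 (adjusted p = 0.211). Adamts9, a secreted protease of matrix proteoglycans, stood at 89.96, 79.03, 69.1 and 64.1 CPM at day 27 and at 132, 114, 127, 122 and 91.4 CPM at day 7, a log2 fold change of -0.64 ± 0.14 (adjusted p = 0.321). The lowest day 7 rat was just above the highest day 27 rat. Adamts9 fell in air rats (-0.59, adjusted p = 0.0301) and after 30 mg/m3 dust (-0.41, adjusted p = 0.00627).

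Among the genes with higher values at day 27, Esm1 had the widest difference of those with the smallest p. It encodes endocan, a proteoglycan secreted by endothelial cells. Its level was 73.2, 35.4, 59.1 and 69.8 CPM at day 27, against 32.4, 21.2, 30.5, 22.3 and 38.2 CPM at day 7. Rat 14 of day 27 lay within the range of day 7 and the other 3 lay above it. The log2 fold change was 1.04 ± 0.20 (SE; adjusted p = 0.0572), while in air rats Esm1 rose by 0.67 ± 0.19 (adjusted p = 0.0485) and after 30 mg/m3 dust by 0.75 ± 0.22 (adjusted p = 0.0292). Vwa1, a matrix protein of basement membranes, stood at 17.5, 13.8, 17.1 and 18.6 CPM at day 27 and at 11.2, 10.9, 11.0, 11.1 and 12.7 CPM at day 7. The groups did not overlap and the log2 fold change was 0.56 ± 0.11 (adjusted p = 0.0572), beside 0.35 in air rats (adjusted p = 0.0527) and 0.13 after 30 mg/m3 dust (adjusted p = 0.541).

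Pik3ip1, an inhibitor of phosphoinositide 3-kinase, stood at 20.8 to 27.3 CPM at day 27 and 14.7 to 18.8 CPM at day 7 (log2 fold change 0.52 ± 0.12, adjusted p = 0.491). It rose in air rats by 0.48 (adjusted p = 0.0360) and after 30 mg/m3 dust by 0.47 (adjusted p = 0.0251). Ccdc88b, a protein of immune cells, had log2 fold changes of 0.43 in dust rats (adjusted p = 0.725), 0.41 in air rats (adjusted p = 0.0410) and 0.51 after 30 mg/m3 dust (adjusted p = 0.0332). For each gene picked by the smallest p, the log2 fold change in air rats was nearer to 0 than in dust rats. These genes were picked by their dust values, a choice that by itself favours air values nearer to 0. The remaining 4 genes had air values between -0.05 and 0.18. Gmds, the enzyme that opens the synthesis of GDP-fucose, was at -0.50 in dust rats and -0.02 in air rats, and St6galnac3, a sialyltransferase, at -0.45 and -0.05. Cbx7, a Polycomb protein, was at 0.32 in dust rats and 0.07 in air rats, and Rcl1, a factor of ribosomal RNA processing, at 0.52 and 0.18. After 30 mg/m3 dust Cbx7 rose by 0.30 (adjusted p = 0.00612), while Gmds was at 0.15, St6galnac3 at -0.05 and Rcl1 at 0.16, none of the 3 past the threshold. None of these passed in dust rats at 10 mg/m3, with adjusted p between 0.713 and 0.875, and none passed in the test of the dust change against the air change.

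**Figure D1:**
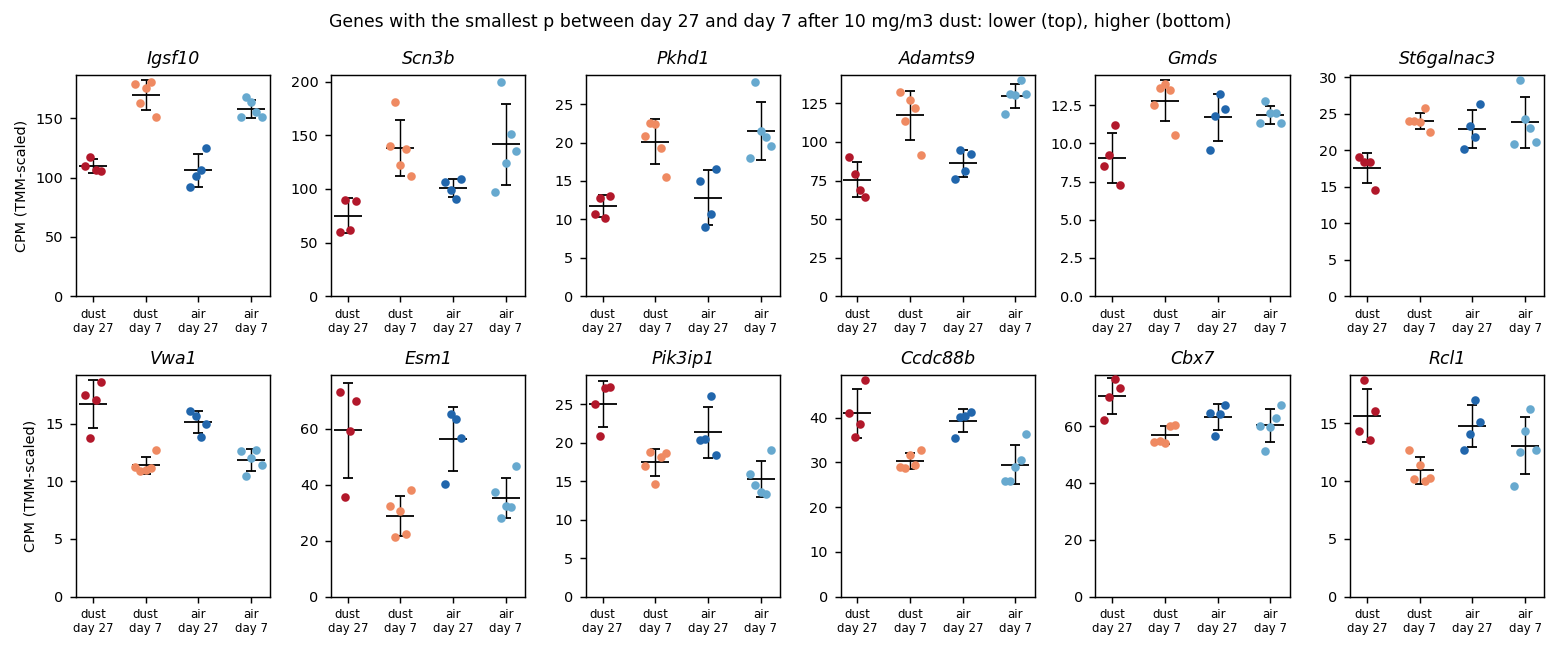
Each panel plots one gene in CPM (TMM-scaled, y axis from 0) for every rat of the 10 mg/m3 study, with dust at day 27, dust at day 7, air at day 27 and air at day 7 from left to right; bars are means and SD. Dust rats of day 27 lie below those of day 7 for Igsf10 (109.7 against 169.7 CPM). For Igsf10, Scn3b, Pkhd1 and Adamts9 the air rats are also lower at day 27, while Gmds and St6galnac3 differ by less in air. The genes were picked by their dust values.

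**Figure D2:**
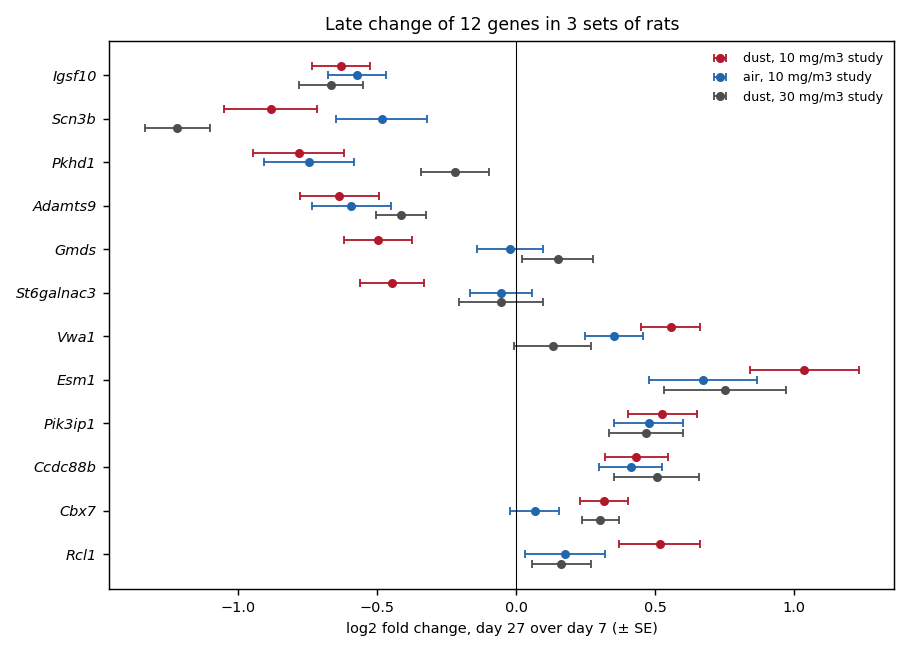
The x axis is the log2 fold change of day 27 over day 7 with its SE, for 12 genes and 3 sets of rats: dust at 10 mg/m3, air of that study, and dust at 30 mg/m3. Igsf10 lies at -0.63, -0.57 and -0.66 in the 3 sets.

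A panel of 14 genes held genes of responses that dust inhalation is known for, besides Sftpc, Mki67 and the clock genes Dbp and Arntl. None passed, and the adjusted p ran from 0.994 to 0.998. Ccl2, the monocyte chemokine, stood at 3.58, 3.82, 3.22 and 3.26 CPM at day 27 and at 4.32, 2.92, 2.02, 3.62 and 3.62 CPM at day 7. The later rats all lay within the range of the earlier ones, with a log2 fold change of 0.07 ± 0.28 (SE). The neutrophil chemokine Cxcl1 had -0.19 ± 0.32 and the inflammasome product Il1b had -0.16 ± 0.17. Hmox1, the haem oxygenase induced by oxidative stress, averaged 35.4 ± 6.09 CPM at day 27 and 35.5 ± 7.58 CPM at day 7. Lcn2, an iron-binding defence protein of epithelium, ran from 95.8 to 181 CPM at day 27 and from 88.1 to 166 CPM at day 7 (0.26 ± 0.40).

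The macrophage products Spp1 and Mmp12 had log2 fold changes of -0.20 ± 0.54 and -0.34 ± 0.44, at means of 8.17 and 9.43 CPM for Spp1 and 2.31 and 2.94 CPM for Mmp12 at day 27 and day 7. Sftpc was at 0.09 ± 0.15. Mki67, a mark of dividing cells, stood at 43.8, 43.7, 36.1 and 28.3 CPM at day 27 and at 41.5 to 49.9 CPM at day 7 (-0.25 ± 0.17). The intervals of low or variable genes are wide, with a 95% interval of -1.31 to 0.91 for Spp1 and -0.57 to 1.09 for Lcn2.

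Genes of the extracellular matrix had mostly lower values at day 27, though no member passed. Of 22 genes of elastic fibres and matrix assembly that were tested, 20 lay below 0 and 2 above, with a median log2 fold change of -0.21, where all genes had a median of -0.01 with 8189 below and 7479 above 0. At an unadjusted p under 0.05, 4 of the 22 were lower and 0 higher, where 2.43% of all genes were lower and 2.06% higher. Fbn1, the microfibril protein fibrillin, stood at 478, 490.2, 464 and 489.9 CPM at day 27 and at 647, 645, 514, 645 and 609 CPM at day 7, without overlap (log2 fold change -0.35 ± 0.12; adjusted p = 0.994). Loxl2, an enzyme that crosslinks collagen and elastin, had -0.44 ± 0.14 with 25.5 to 33.6 CPM at day 27 and 32.97 to 46.8 CPM at day 7. Tnc, a matrix glycoprotein of growth and repair, had -0.59 ± 0.24, and Lum, a proteoglycan of collagen fibrils, had -0.49 ± 0.19. Eln itself, the elastin gene, was at -0.22 ± 0.38. In air rats Fbn1 was at -0.42 (edgeR adjusted p = 0.0486), Loxl2 at -0.39, Tnc at -0.80, Lum at -0.13 and Eln at -0.11. After 30 mg/m3 dust Loxl2 was at -0.66 (edgeR adjusted p = 0.000472) and Lum at -0.59 (edgeR adjusted p = 0.0231). Fbn1, Tnc and Eln were at -0.29, -0.28 and -0.31 there and did not pass.

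The summed level of this list was 6949 to 8510 CPM at day 27 and 8351 to 9253 CPM at day 7, and only rat 16 of day 27 reached into the range of day 7. In air rats the list's median was -0.08 with 1 of 22 members lower past the adjusted threshold, near the 2.62% of all genes called lower there. After 30 mg/m3 dust the median was -0.26 with 4 of 22 lower, where 6.54% of all genes were called lower. Of the 40 lists, the sums of these others lay fully apart in the 10 mg/m3 dust rats. How often sums part by chance among 40 lists was not tested, and a sum follows its most abundant members. Fibroblast markers had 9269 to 10985 CPM at day 27 and 11038 to 12844 CPM at day 7. Imprinted and growth genes had 788 to 874 and 879 to 928 CPM. Targets of NRF2 in the oxidative stress response had 2133 to 2324 and 1807 to 2109 CPM, and immediate early genes 1298 to 1498 and 1212 to 1286 CPM. In air rats only the fibroblast and NRF2 sums among these lay apart. At an unadjusted p under 0.05 in dust rats, the NRF2 list had 0 of 15 members, the immediate early list 2 of 20 higher. The growth list had 2 of 15 lower and the fibroblast list 1 of 15 in each direction. Of all genes 2.06% were higher and 2.43% lower.

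Of 16 collagen genes tested, 11 lay below 0 and 5 above, with a median of -0.16. The list split evenly in air rats, with 8 above and 8 below 0 and a median of -0.01, and after 30 mg/m3 dust it had the same split and, to 2 decimals, the same median. Col6a3, a chain of the beaded collagen filaments around cells, stood at 883, 839.8, 845 and 837 CPM at day 27 and at 1078, 1219, 1024, 1162 and 1060.3 CPM at day 7. The groups lay apart, yet the adjusted p was 0.936 (log2 fold change -0.38 ± 0.11), and in air rats Col6a3 fell by 0.43 (adjusted p = 0.0363). After 30 mg/m3 dust it was at -0.06 (adjusted p = 0.783). Col12a1, a collagen on fibril surfaces, had -0.26 ± 0.10. The chains of the common fibrils had larger errors, at -0.53 ± 0.42 for Col1a1 and -0.29 ± 0.17 for Col3a1. Col1a1 stood at 332, 388, 365 and 532 CPM at day 27 and at 531, 761, 464, 604 and 552 CPM at day 7.

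Enzymes that process collagen lay below 0 in 12 of 13 genes tested, with a median of -0.12. In air rats 9 of the 13 lay above 0, with a median of 0.03, and after 30 mg/m3 dust 4 did, with a median of -0.08. Plod2, a lysyl hydroxylase that prepares collagen for crosslinks, had -0.39 ± 0.12 (adjusted p = 0.994), and it fell in air rats (-0.44, adjusted p = 0.0423) and after 30 mg/m3 dust (-0.44, adjusted p = 0.00502). The fibroblast markers had a median of -0.09, with 11 of 15 members below 0. Pdgfra, a receptor of fibroblasts, was on the other side at 0.22 ± 0.10.

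Some genes of the basement membrane, the sheet under epithelium and endothelium, were picked after their values had been seen, and they are given as values without a test of the group. Of 26 such genes and integrins tested, 21 lay below 0 and 5 above, with a median of -0.12. At an unadjusted p under 0.05, 8 were lower and 1 was higher, beside 2.43 and 2.06% of all genes, and the one that was higher was Vwa1. Because the genes were picked with these values in view, a surplus over those shares was built in and carries no weight. The median was -0.04 in air rats, with 16 of 26 below 0, and 0.07 after 30 mg/m3 dust, with 16 of 26 above 0. Lamb1, a laminin chain, stood at 211, 209, 213 and 230.3 CPM at day 27 and at 275, 279, 259, 259.9 and 258 CPM at day 7 (-0.30 ± 0.08; adjusted p = 0.725). Col4a5, a chain of type IV collagen, had 328 to 379.9 CPM at day 27 and 397 to 449.5 CPM at day 7 (-0.27 ± 0.07; adjusted p = 0.725). Both showed no overlap between the days. Nid1, which links laminin to type IV collagen, had -0.33 ± 0.09. The integrin chains Itga6 and Itga2 had -0.30 ± 0.08 and -0.62 ± 0.17. In air rats the log2 fold changes were -0.19 for Lamb1, -0.13 for Col4a5, -0.26 for Nid1, -0.08 for Itga6 and -0.53 for Itga2, none past the threshold. After 30 mg/m3 dust Lamb1, Nid1 and Itga2 fell, by 0.34, 0.48 and 0.48 (adjusted p = 0.00579, 0.00451 and 0.00661), while Col4a5 was at -0.20 (adjusted p = 0.0911) and Itga6 at 0.10 (adjusted p = 0.655).

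Genes of mitosis had 22 of 25 tested below 0 and a median of -0.19, but 0 members reached an unadjusted p under 0.05 in either direction. Kif23, a motor of the dividing cell, had -0.23 ± 0.16, and Cenpe, a kinetochore motor, had -0.35 ± 0.20. The same list had a median of -0.36 in air rats, with 0 of 25 past the adjusted threshold. At an unadjusted p under 0.05, 8 of the 25 were lower in air rats, where 2006 of all 15668 genes were. After 30 mg/m3 dust the median was -0.47, with 10 of 25 lower past the adjusted threshold, where 6.54% of all genes were called lower. At an unadjusted p under 0.05, 15 of the 25 were lower there, where 2411 of 15323 genes tested at both doses were. DNA replication genes were split, 15 above and 10 below 0, with a median of 0.05. A pair of low-level members had values above 0, Gins1 at 0.70 ± 0.31 and Cdc45 at 0.61 ± 0.28, both parts of the replicative helicase. Of 15 imprinted and growth genes 11 lay below 0, with a median of -0.11: Igf1, the insulin-like growth factor, had 202 to 241 CPM at day 27 and 239.8 to 301 CPM at day 7 (-0.23 ± 0.09), and Grb10, an adaptor that restrains its receptor, had -0.19 ± 0.08. Igf1 fell after 30 mg/m3 dust by 0.44 (adjusted p = 0.00579).

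**Figure D3:**
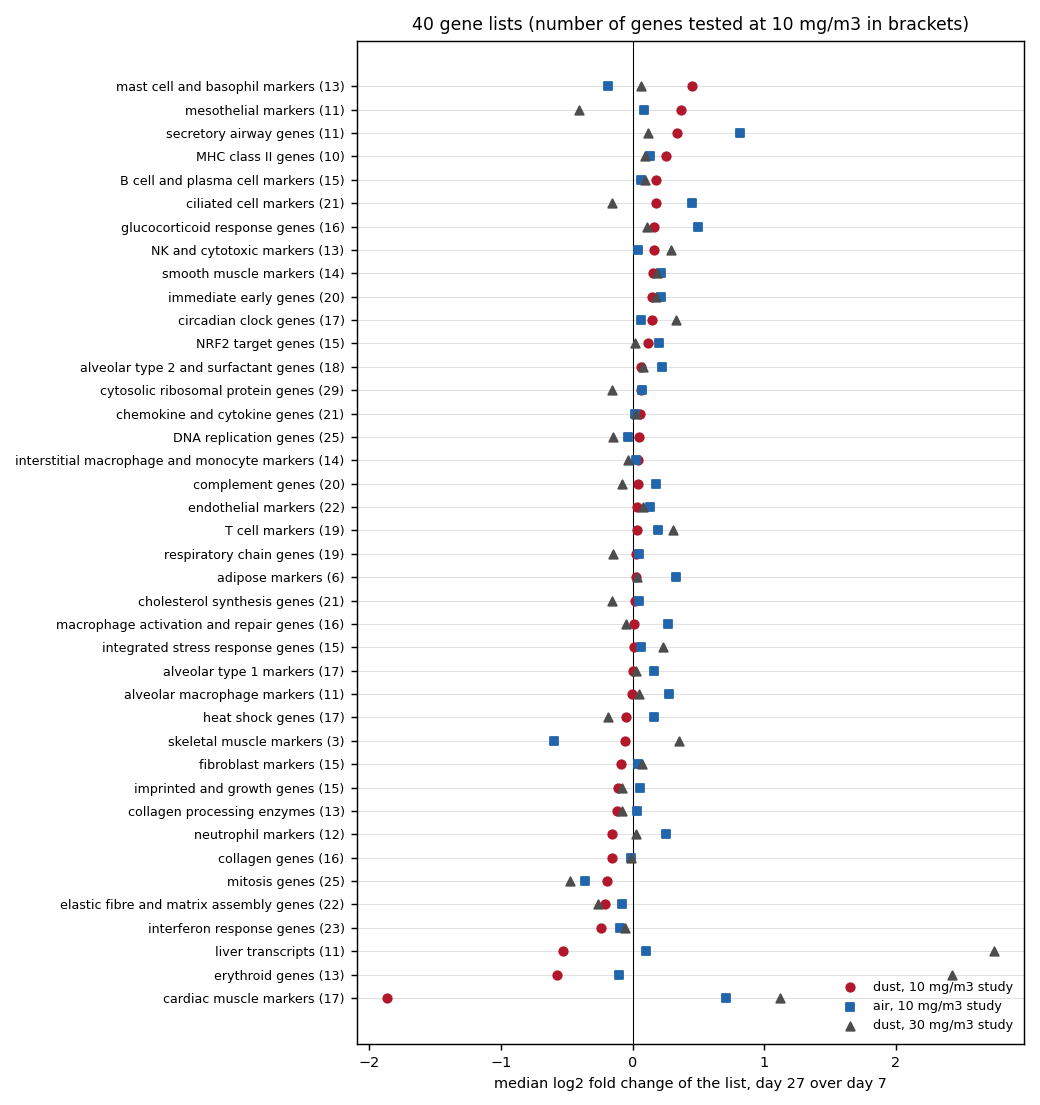
The x axis gives, for each of 40 gene lists, the median log2 fold change of day 27 over day 7 in dust rats at 10 mg/m3, air rats of that study and dust rats at 30 mg/m3; the number of tested genes stands in brackets. Most medians at 10 mg/m3 dust lie near 0, with cardiac muscle markers at -1.86 and mast cell markers at 0.45 at the ends.

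Inflammatory and defence lists were mixed. The 21 chemokine and cytokine genes had 11 above and 10 below 0, a median of 0.06 and 0 members with an unadjusted p under 0.05. Cxcl3, a neutrophil chemokine, had 496 to 586 CPM at day 27 and 448 to 494 CPM at day 7 (0.23 ± 0.15). Genes of macrophage activation and repair had 8 of 16 above 0 with a median of 0.01, beside 0.27 in air rats (1 of 16 called higher). NRF2 targets of the oxidative stress response had 10 of 15 above 0 with a median of 0.12. Their median was 0.20 in air rats (2 of 15 called higher, where 1.4% of all genes were). Interferon response genes had 21 of 23 below 0 and a median of -0.24, with 0 members higher and 2 lower at an unadjusted p under 0.05, where 2.06% of all genes were higher and 2.43% lower. The median was -0.10 in air rats and -0.06 after 30 mg/m3 dust. Rsad2, the antiviral protein viperin, stood at 24.5, 17.2, 23.5 and 24.99 CPM at day 27 and at 38.4, 32.6, 33.6, 22.5 and 30.5 CPM at day 7. One early rat lay within the later range, and the log2 fold change was -0.48 ± 0.15 (adjusted p = 0.994). In air rats it was -0.31 (adjusted p = 0.207). After 30 mg/m3 dust Rsad2 went the other way and rose by 2.78 ± 0.86 (adjusted p = 0.0371), with 48.3 to 2074 CPM at day 27 and 53.9 to 118 CPM at day 7. The highest value there belonged to rat 89, and the groups overlapped. Ifi44, another gene induced by interferon, had -0.39 ± 0.15 and fell in air rats by 0.60 (adjusted p = 0.0324), and it was at -0.16 after 30 mg/m3 dust (adjusted p = 0.530).

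Genes of antigen presentation by MHC class II had 9 of 10 members above 0 and a median of 0.26, with 0 past an unadjusted p of 0.05. The median was 0.14 in air rats, with 7 of 10 above 0, and 0.10 after 30 mg/m3 dust. Cd74, the invariant chain, averaged 1469 ± 75.6 CPM at day 27 and 1293 ± 89.2 CPM at day 7 in dust rats (0.18 ± 0.10). It had 0.32 in air rats (edgeR adjusted p = 0.0667). RT1-Ba, a rat class II chain whose counts may be split with its near copies, stood at 93.2, 84.4, 100.04 and 99.01 CPM at day 27 and at 54.7, 44.9, 63.5, 90.5 and 100.5 CPM at day 7. Rats 47 and 48 of day 7 were at the level of day 27. Complement genes had 14 of 20 above 0 and a median of 0.04.

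Igsf10, the gene that edgeR called between the 2 days in dust rats, is in no list of cell type markers. In dust rats alveolar type 2 genes had a median of 0.06 and alveolar type 1 markers a median of 0.00. Endothelial markers had a median of 0.03, and Erg, an endothelial transcription factor, had 0.30 ± 0.12 beside a rise of 0.43 in air rats (adjusted p = 0.0453). All 11 secretory airway genes tested, of 15 listed, lay above 0 with a median of 0.34, and in air rats the median was 0.82. Scgb1a1, the club cell secretory protein, stood at 2042, 4078, 3471 and 3014 CPM at day 27 and at 2210 to 2587 CPM at day 7. Rat 13 of day 27 was the lowest of all 9. Ciliated cell markers had 18 of 21 above 0 and a median of 0.18, beside 0.45 in air rats and -0.15 after 30 mg/m3 dust.

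Among immune cells, all 13 mast cell and basophil markers lay above 0 with a median of 0.45, and none had an unadjusted p under 0.05. Hpgds, the prostaglandin D synthase of mast cells, had 3.22 to 5.31 CPM at day 27 and 2.11 to 3.15 CPM at day 7, without overlap (0.59 ± 0.30; adjusted p = 0.994). Il1rl1, the receptor of interleukin 33, had 0.34 ± 0.18. The median of this list was -0.18 in air rats and 0.06 after 30 mg/m3 dust. Cd163, a scavenger receptor of tissue macrophages, had 4.95 to 13.7 CPM at day 27 and 4.34 to 7.70 CPM at day 7 (0.68 ± 0.23). F13a1, a transglutaminase of monocytes and interstitial macrophages, had 18.8 to 20.9 CPM at day 27 and 10.5 to 17.3 CPM at day 7 (0.43 ± 0.16), with 0.03 in air rats. Ncr1, a receptor of natural killer cells, had 0.70 ± 0.24. Bank1, an adaptor of B cells, had 51.5 to 76.8 CPM at day 27 and 42.1 to 49.4 CPM at day 7 (0.46 ± 0.19), with -0.12 in air rats. S100a9, abundant in neutrophils, had -0.38 ± 0.29. None of these passed, with adjusted p of 0.994 for each.

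The lists of blood and heart muscle genes, which a piece of lung can carry along, had the widest medians. The erythroid list had 10 of 13 members below 0 and a median of -0.58, with 5 of 13 lower at an unadjusted p under 0.05, beside 2.43% of all genes. Hba2, a globin whose counts may be split with its near copies, stood at 353, 325, 246 and 311 CPM at day 27 and at 587, 486, 584, 357 and 324 CPM at day 7. Alas2, which starts haem synthesis in red cell precursors, had -0.58 ± 0.23. Globin and Alas2 were high in rats 43, 44 and 45 of day 7 and close to the later level in rats 47 and 48. In air rats the erythroid median was -0.10, and after 30 mg/m3 dust it was 2.43 with 4 of 13 members higher past the adjusted threshold, where 4.79% of all genes were called higher.

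All 17 cardiac muscle markers tested lay below 0 with a median of -1.86. Their summed level was 136 to 447 CPM at day 27 and 198 to 2184 CPM at day 7. Titin, Ttn, stood at 105, 162, 179 and 58.1 CPM at day 27 and at 84.7, 413, 149, 889.8 and 235 CPM at day 7. Rats 44, 47 and 48 of day 7 lay above all rats of day 27, with rat 47 the highest. The SE of Ttn was 0.83 on the log2 scale. In air rats the median of the list had the other sign, at 0.71. With the cardiac score as a covariate Igsf10 had an adjusted p of 0.00941.

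**Figure D4:**
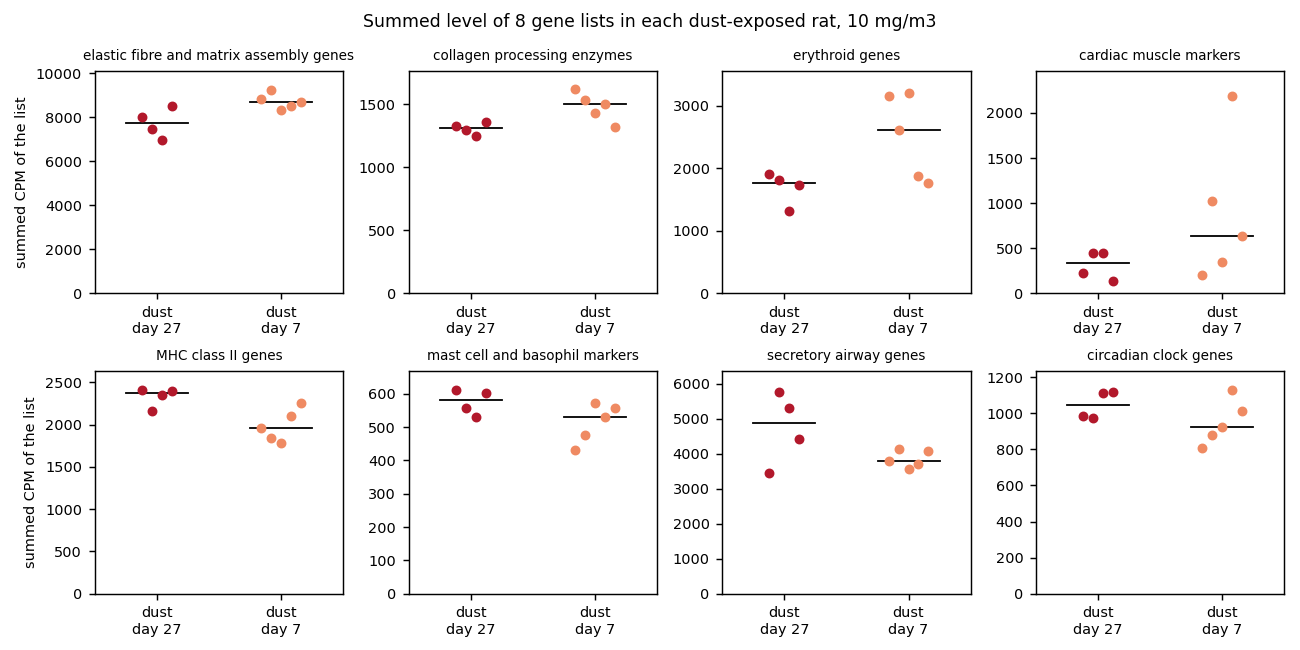
Summed CPM (y axis from 0) of 8 gene lists for each dust rat at 10 mg/m3, day 27 on the left and day 7 on the right of each panel; the bar is the median. Elastic fibre genes range over 6949 to 8510 CPM at day 27 and 8351 to 9253 CPM at day 7, and cardiac markers reach 2184 CPM in 1 rat of day 7.

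Genes of the circadian clock varied within both days. Dbp, a clock output factor, had 19.03, 18.3, 35.03 and 41.9 CPM at day 27, against 3.97, 7.13, 12.0, 36.2 and 19.2 CPM at day 7. Arntl, the activator that runs opposite to it, had 48.6, 53.9, 37.1 and 32.5 CPM at day 27 and 66.98, 60.8, 53.1, 39.1 and 52.6 CPM at day 7. The groups overlapped in both, and the log2 fold changes were 0.86 ± 0.43 and -0.34 ± 0.14 (adjusted p = 0.994 for each). Tef, a relative of Dbp, had 0.42 ± 0.14, the repressor Per1 had 0.71 ± 0.30 and Clock, the partner of Arntl, had -0.19 ± 0.08. Of 17 clock genes, 3 were higher and 2 lower at an unadjusted p under 0.05, where 2.06% of all genes were higher and 2.43% lower. With the difference of Arntl and Dbp as a covariate, no gene passed in edgeR (541 at an unadjusted p under 0.05), and Igsf10 had a log2 fold change of -0.59 with an adjusted p of 0.418.

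Glucocorticoid response genes had 11 of 16 above 0 and a median of 0.16. Klf9, a transcription factor induced by the hormone, had 85.6 to 99.4 CPM at day 27 and 68.0 to 78.4 CPM at day 7, without overlap (0.27 ± 0.12; adjusted p = 0.994), and it rose in air rats by 0.48 (adjusted p = 0.0315). Immediate early genes had 16 of 20 above 0 and a median of 0.14, with Fosl2, a subunit of AP-1, at 0.53 ± 0.20.

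More genes were called in air rats. In air rats of the 10 mg/m3 study 631 of 15668 genes (4.03%) passed between day 27 and day 7, 220 higher (1.4%) and 411 lower (2.62%). Of these 631 genes, 598 (94.8%) had the same sign in dust rats, where 68.6% of all 15668 genes had the same sign in both. The 411 genes that fell in air rats had a median of -0.19 in dust rats and -0.56 in air rats. The 220 that rose in air rats had a median of 0.16 in dust rats and 0.46 in air rats. The 631 genes were picked by their air values, which bears on the air medians but not on the dust rats, whose libraries are others. Across all 15668 genes Pearson's r between the dust and the air change was 0.24, over genes of 1 fit that are not independent of each other.

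The count in air rats rested on single libraries: it was 26 without air rat 33, 0 without any of air rats 34, 36, 1 and 3 (2282 to 3121 at an unadjusted p under 0.05), 265 without air rat 5 and 2148 without air rat 6. With only the 2 air groups in the fit it was 0 in edgeR, with 3304 at an unadjusted p under 0.05, while DESeq2 and voom on all groups called 1260 and 1206. The share of mitochondrial ribosomal RNA in the air libraries was 3.02 to 4.00% at day 27 and 0.447 to 4.43% at day 7, and its part in the count was not tested.

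Tested directly, the dust change minus the air change passed in 0 of 15668 genes in edgeR, with a smallest adjusted p of 0.989 and 629 genes (4.01%) under 0.05 before adjustment. Both DESeq2 and voom called 0 as well. The smallest p on the higher side belonged to Polg2, an accessory subunit of the mitochondrial DNA polymerase. It averaged 6.80 ± 0.7001 CPM at day 27 and 5.62 ± 0.950 CPM at day 7 in dust rats, and 4.57 ± 1.27 and 7.36 ± 1.06 CPM in air rats, so that the log2 fold changes were 0.28 and -0.69. Dlg3, a scaffold protein of cell junctions, had 0.02 in dust rats and fell by 0.45 in air rats (adjusted p = 0.0240). On the lower side Gpr97, an adhesion receptor of granulocytes, had -0.40 in dust rats and 0.92 in air rats, and Pxmp4, a peroxisomal membrane protein, had -0.03 and 0.51. Tnfaip2, induced by tumour necrosis factor, had -0.23 in dust rats and 0.33 in air rats. None of these differences passed.

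Among genes with the smallest p in air rats, Eps8l2, Cgn, Glul and St7l had dust values of the same sign and nearer to 0. The dust change minus the air change did not pass for any of them. They were picked by their air values, a choice that by itself favours dust values nearer to 0. Of others picked in this way, Igsf10 was farther from 0 in dust rats (-0.63 against -0.57), and Dlg3 was at 0.02 against -0.45. Eps8l2, an actin regulator of epithelium, rose in air rats by 0.51 (adjusted p = 0.0240) and had 0.27 ± 0.09 in dust rats, with 113 to 128 CPM at day 27 and 98.0 to 109 CPM at day 7. Cgn, a protein of tight junctions, rose in air rats by 0.57 and had 0.35 ± 0.10 in dust rats. Glul, glutamine synthetase, rose by 0.47 in air rats and had 0.11 ± 0.08 in dust rats. St7l, a relative of a candidate tumour suppressor, fell by 0.63 in air rats and had -0.24 ± 0.12 in dust rats.

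**Figure D5:**
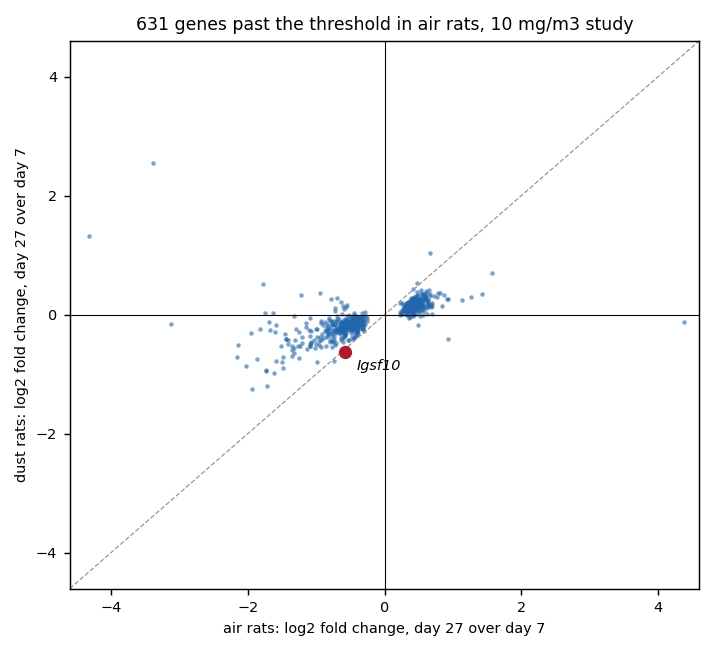
Each point is 1 of the 631 genes past the threshold in air rats; the x axis is its log2 fold change of day 27 over day 7 in air rats and the y axis that in dust rats at 10 mg/m3, with the dashed line marking equal values. Most points lie in the quadrants of equal sign (598 of 631) and nearer to 0 on the dust axis, and Igsf10 lies close to the dashed line. The genes were picked by their air values, which bears on their spread along the x axis.

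At 30 mg/m3 more genes differed between the same days. In that separate study 1762 of 15551 genes (11.3%) passed, 745 higher (4.79%) and 1017 lower (6.54%). Of the 1734 that were tested at both doses, 1085 (62.6%) had the same sign after 10 mg/m3, where 55% of all 15323 genes did. The share was 69.2% for the genes that fell and 53.2% for those that rose, and the medians in the 10 mg/m3 dust rats were -0.05 and 0.01, against -0.32 and 0.44 in the 30 mg/m3 rats. Across all 15323 genes tested at both doses Pearson's r between the changes was -0.04, beside the 0.24 with air rats of the same study. The doses come from separate studies with different numbers of rats, and the difference between them was not tested. The count at 30 mg/m3 was 390 without rat 74, 584 without rat 92, 718 without rat 79 and 787 without rat 77. With rats 91, 94, 96, 76 and 89 each left out alone, it was 914, 994, 1121, 1402 and 1572. It was higher without rat 73 (2051), rat 90 (2261) or rat 75 (2283).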

How the data were processed

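The authors deposited raw, unnormalised counts for each gene symbol, 1 table per dose. The submitters' processing notes name HISAT2 2.1.0 and HTSeq 0.6.1, besides bcl2fastq 2.19, SAMtools 1.8 and Trimmomatic 0.35, and the genome build Rnor_6.0. Annotation and strandedness of the counting, not given in the sources used here, leave values of overlapping, antisense and near-identical genes uncertain. The table lists 30045 symbols, 6131 of them at 0 in all 28 libraries of the 10 mg/m3 study.

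Tests used edgeR 4.0.16 in R 4.3.3, with TMM factors, filterByExpr (minimum count 10, minimum total 15), robust quasi-likelihood F tests and Benjamini-Hochberg adjustment at 0.05 over all genes tested. The 6 groups of the 10 mg/m3 study shared 1 fit of 28 libraries and 15668 genes (biological coefficient of variation 16.1%). The contrasts were day 27 minus day 7 in dust rats, the same in air rats, and the difference of both. The 30 mg/m3 study was fitted on its own, with 36 libraries and 15551 genes. Gene lists are described by counts and medians only.

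No library repeats another of its dust group: the chi-square of each pair was 3.52 or more per degree of freedom. That libraries are separate rats rests on the numbers in their titles. The procedure was tested on simulated data. Alternatives were DESeq2 1.42.0, limma 3.58.1 (voom), RLE factors, library totals, other filters, only the compared groups, 3 covariates (mitochondrial ribosomal RNA share, cardiac score, clock phase) and each library left out.

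The comparison, the 40 lists and the panel of 14 genes were chosen with earlier results of these data known. Named are the panel, genes past the threshold, the 6 smallest p on each side, up to 4 members of a list by p, and, in air rats and for the difference, genes among the 5 smallest p on each side. The basement membrane genes were picked after their values were seen.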

Additional observations from a re-analysis of the deposited data

Results flagged for a closer look

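In 58 sets of values, each from the dust rats of 1 day, a single rat far from the others was looked for. The sets covered the panel, the genes with the smallest p, and the library measures total counts, genes detected and mitochondrial ribosomal RNA share. Such a rat was found in 2 sets, where chance gives about 1 in 20. St6galnac3 stood at 14.6 CPM in rat 16 of day 27, the nearest of the other 3 rats at 18.4 CPM. Vwa1 stood at 12.7 CPM in rat 48 of day 7, the nearest of the other 4 rats at 11.2 CPM.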

How the results depend on the processing

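No paired analysis was possible because each library carries a rat number of its own and no number is shared between groups. Against 1 gene called in dust rats (0 higher, 1 lower), DESeq2 called 6 (2 higher, 4 lower), library totals alone 4 (2 higher, 2 lower), only the compared groups 2 (Igsf10 and Plcb1, both lower), the mitochondrial ribosomal RNA covariate 3 (Igsf10, Scn3b and Col6a3, all lower) and the clock covariate 0. Leaving out 1 rat gave 0 to 4 (0 to 2 higher, 0 to 2 lower). In air rats the count was 1260 with DESeq2, 1206 with voom, 326 without a filter on low counts, 0 with only the compared groups and 0 to 2148 with 1 rat left out. At 30 mg/m3 it was 1124 without a filter and 390 to 2283 with 1 rat left out. The dust change minus the air change called 0 under every alternative run. The cause of these differences was not tested.

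Of 82 genes followed through 19 alternatives, 76 never changed sign. Hmox1, at -0.003 in the report's fit, had log2 fold changes of 0.00647 with DESeq2, 0.00677 with voom, 0.0073 with RLE factors, 0.00486 with library totals, 0.0154 without a filter, 0.00272 with the stricter filter, 0.0147 with only the compared groups, 0.0421 with the mitochondrial RNA covariate and -0.118 to 0.135 with 1 rat left out. Ccl2 had -0.0331 with the cardiac covariate and -0.0688 to 0.188 with 1 rat left out. With the clock covariate Lcn2 had -0.0324, Dbp -0.00613, Arntl 0.00144 and Mest 0.0077. For Igsf10 the dust change minus the air change ran from -0.119 to 0.0298 with 1 rat left out. With 4 and 5 rats the SE of a gene had a median of 0.15, which limits the changes that could be detected, and genes of few counts have wider errors.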

Other observations

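Further cell types and pathways showed no member past the threshold. Smooth muscle markers had 11 of 14 genes above 0 with a median log2 fold change of 0.15, and Lmod1, an actin nucleator of smooth muscle, had 42.6 to 47.7 CPM at day 27 and 29.04 to 41.2 CPM at day 7, without overlap (0.36 ± 0.16; edgeR adjusted p = 0.994). Mesothelial markers of the pleura had 9 of 11 above 0 and a median of 0.37; Upk3b stood at 22.03, 8.45, 4.19 and 15.9 CPM at day 27 and at 8.87, 3.40, 4.84, 1.81 and 10.7 CPM at day 7. Markers of alveolar macrophages had 5 of 11 above 0 with a median of -0.00, those of interstitial macrophages and monocytes 11 of 14 with 0.04, and those of neutrophils 3 of 12 with -0.16. T cell markers had 11 of 19 above 0 with a median of 0.03, natural killer and cytotoxic markers 10 of 13 with 0.16, and B and plasma cell markers 11 of 15 with 0.18. Their summed levels overlapped between the days in each case.

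Heat shock genes had 5 of 17 above 0 and a median of -0.05, with Hspa8, a constitutive chaperone, at -0.42 ± 0.21. Hspa8 averaged 16.5 CPM at day 27 and 22.1 CPM at day 7 here. In dust rats of the 30 mg/m3 study it averaged 107 and 145 CPM, and the cause of this gap between studies was not tested. Integrated stress response genes had 8 of 15 above 0 with a median of 0.01; Trib3, a target of this response, had 5.55 to 8.09 CPM at day 27 and 3.47 to 5.72 CPM at day 7 (0.60 ± 0.22), so that 1 later rat reached into the earlier range. Cholesterol synthesis genes had 12 of 21 above 0 with a median of 0.02, cytosolic ribosomal protein genes 23 of 29 with 0.06, and respiratory chain genes 10 of 19 with 0.03. Liver transcripts had 4 of 11 above 0 with a median of -0.52, adipose markers 3 of 6 with 0.02, and skeletal muscle markers 1 of 3 with -0.06.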
